A study of Mus musculus with 2 samples.

Results

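The genes described here encode the small ubiquitin-like modifiers Sumo2 and Sumo3, both subunits of their activating enzyme (Sae1 and Uba2) and 4 proteases that remove or process them (Senp1, Senp2, Senp3 and Senp6). They were taken by symbol from the authors' comparison of distal with proximal regions of mouse limb-mesenchymal organoids, and all 8 were among its 13916 protein-coding genes. The set was chosen by the log2 change of Sumo2 in that comparison, together with its paralogues and enzymes whatever their change, so the values of that comparison are given for the members as a description and carry no test of their own.

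SUMO proteins are attached to lysines of other proteins in a cascade like that of ubiquitin. A SENP protease first trims the precursor, the Sae1 and Uba2 heterodimer activates it, and ligases such as the Pias proteins aid its transfer to the target. SENP proteases later take the modifier off again, and SUMO attachment is known as a regulator of transcription factors, chromatin and chromosome segregation in most dividing tissues, embryonic mesenchyme included.

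The organoids were made from embryonic limb mesenchymal cells of Slc:ICR mice and were kept in culture for 48 h with Fgf8b and Wnt3a, which both groups received. On day 2, 5 organoids from 4 surrogate cultures (the labels' term) were frozen, and 10 µm sections were reverse transcribed in place using primers blocked by a photo-removable group. In this method, photo-isolation chemistry, light at 365 nm frees the cDNA of a chosen area, here the distal or the proximal part of an organoid. Each group was 1 library pooled from 5 barcoded regions, so the distal and the proximal side cannot be told apart from the library that held them. The labels do not say which organoid each region came from. The p-values therefore rest only on counting error and on the fitted spread between these regions.

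Depth differed between the sides. Size factors read from the lowest means corresponded to about 46991 to 118979 counts of listed genes in a distal region and 214773 to 345650 in a proximal region, so the proximal side was 3.30 times as deep in all. A count of 3 over a whole side, used here as the limit of detection, equals a level of 1.02 normalized counts per region in distal and 0.311 in proximal. Every member stood above that limit on both sides, and the means of the 8 genes in the authors' deposited table ran from 10.1 to 52.8, against a median of 3.40 over all genes. All 15 limb mesenchyme markers were listed. Among them Prrx1, Twist1 and Pdgfra had about 414, 210 and 206 distal and 1704, 736 and 1236 proximal counts. Pitx1 alone stood at or under the limit on a side, with about 0.833 distal and 18.1 proximal counts. Of 8 surface ectoderm markers 4 were listed, with at most 2.10 distal and 4.07 proximal counts each, and of 9 blood and endothelial markers 4 were listed, with at most 2.88 distal and 8.29 proximal counts each.

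A gene is called here when the adjusted p that the authors' deposited table lists for it lies under 0.05, and 1 of the 8 members was called, Sumo2, which was higher in distal. Over all genes 0.977% were called, made up of 0.395% with the higher level in distal and 0.582% with the higher level in proximal. All members had means of 10 or more, and of such genes 3.03% were called, 1.36% towards distal and 1.68% towards proximal. The other 7 members had log2 changes from -0.26 to 0.97 in the authors' deposited table, with a median of 0.18, beside a median of 0.07 over all genes and 0.00466 over those with means of 10 or more. With Sumo2 included the median of the members was 0.20. Regions of tissue were measured, so fewer cells that hold a transcript and less transcript per cell cannot be told apart.

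**Figure D1:**
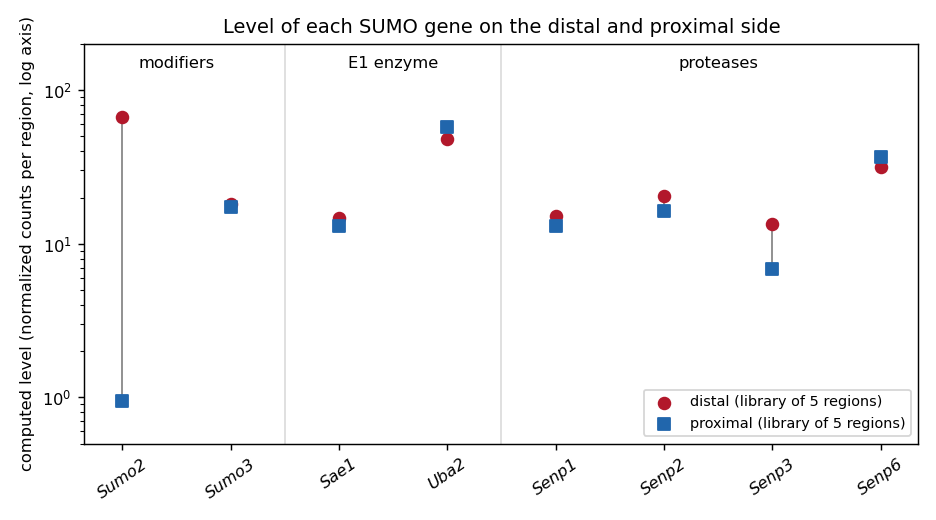
Level computed for each gene on each side, in normalized counts per region on a log axis, from the deposited mean and log2 change. Circles are the distal and squares the proximal library, and no error is drawn; Sumo2 stood at 66.8 in distal and 0.943 in proximal, while both symbols of Sumo3 nearly coincide.

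Sumo2 was the member with a large difference between the sides. Sumo2 (ENSMUSG00000020738) lies at chr11:115523102-115536276 on the minus strand (all positions are those of GENCODE M21 on GRCm38) and makes the modifier that forms chains and is conjugated in bulk when cells are stressed. Its level was 66.8 normalized counts per region in distal and 0.943 in proximal. These levels correspond to about 196 counts in the shallow distal library and 9.11 counts in the deep proximal library. The proximal side therefore held few Sumo2 counts, yet more than the limit of 3. The authors' deposited table lists a mean of 33.9 for Sumo2, a log2 change of 6.15 (SE, the standard error, 0.52) and an adjusted p of 9.3e-29. As a fold this is 70.8 times higher in distal, with a 95% interval from the SE of 34.9 to 144. No other of the 13916 genes had a larger log2 change towards distal.

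Sumo3 (ENSMUSG00000020265, chr10:77606097-77618331, plus strand) encodes a modifier that is nearly the same protein as Sumo2 once processed. It stood at 18.2 normalized counts per region in distal and 17.3 in proximal, or about 53.3 and 167 counts. The sides were nearly level. The authors' deposited table gave it a log2 change of 0.07 (SE 0.29, adjusted p 0.991). The interval of that change ran from -0.50 to 0.64, so a doubling or halving between the sides lay outside it. A change of 1.02 on the log2 scale would have been needed for Sumo3 to reach the smallest statistic of any called gene, 3.50.

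Set against its near paralogue, Sumo2 had a log2 change 6.08 larger than Sumo3 (standard error 0.60, interval 4.91 to 7.25). This error combines both genes' standard errors as if the genes were independent, and the difference is a description, since Sumo2 was chosen for its change. Summed over Sumo2 and Sumo3, the level was 84.97 normalized counts per region in distal and 18.3 in proximal, a ratio of 4.65. The excess in distal of that sum thus lay in the Sumo2 counts, since Sumo3 alone was at 18.2 and 17.3. Against the other 6 members the log2 change of Sumo2 was larger by 5.17 (Senp3) to 6.41 (Uba2).

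**Figure D2:**
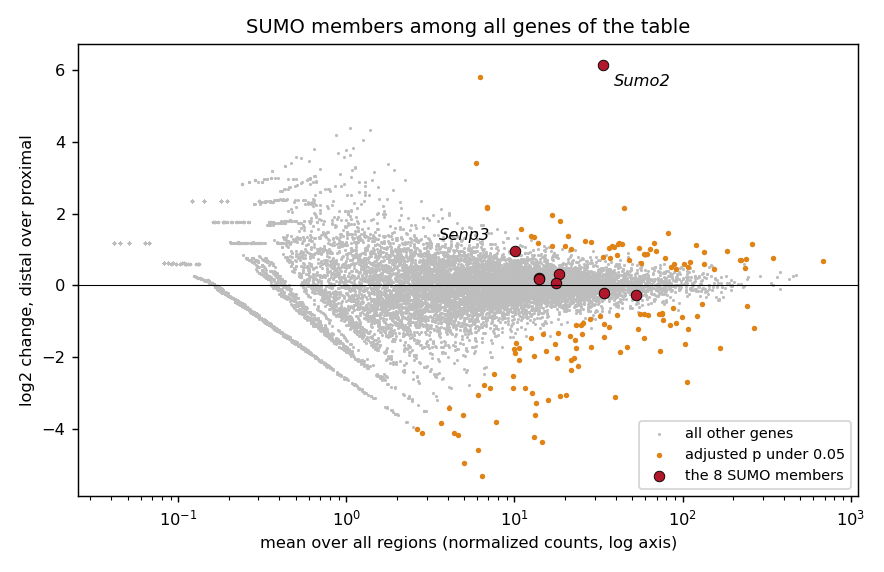
Deposited log2 change of distal over proximal against the mean over all regions (normalized counts, log axis) for the 13916 genes. Sumo2 stands apart at a mean of 33.9 and a log2 change of 6.15, and the other 7 members lie between -0.26 and 0.97.

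The sequences bear on how reads of Sumo2 can be counted, so a coding stretch of 120 bases without gaps is shown for Sumo2, Sumo3 and annotated copies of Sumo2, read 5′ to 3′ from GENCODE M21 transcripts. Capitals mark bases that differ from Sumo2.
Sumo2: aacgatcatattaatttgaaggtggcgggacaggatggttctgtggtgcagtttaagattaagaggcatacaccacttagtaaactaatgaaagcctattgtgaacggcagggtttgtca
Sumo3: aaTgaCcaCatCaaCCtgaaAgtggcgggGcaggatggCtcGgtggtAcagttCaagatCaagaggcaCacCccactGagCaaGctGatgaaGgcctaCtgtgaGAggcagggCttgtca
Gm10241: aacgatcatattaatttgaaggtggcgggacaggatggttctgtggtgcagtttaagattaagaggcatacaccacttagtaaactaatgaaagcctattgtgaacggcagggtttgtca
Gm13690: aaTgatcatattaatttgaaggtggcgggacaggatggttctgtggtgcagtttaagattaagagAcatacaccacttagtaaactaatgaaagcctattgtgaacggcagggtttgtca
Gm13430: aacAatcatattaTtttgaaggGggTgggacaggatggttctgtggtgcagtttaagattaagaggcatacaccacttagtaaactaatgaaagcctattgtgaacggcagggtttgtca
Sumo3 differed from Sumo2 at 24 of these bases, the pseudogene Gm10241 (chr16:20176727-20177012) at 0, and the pseudogenes Gm13690 and Gm13430 on chromosome 2 at 2 and 4. Over the coding parts that align, Sumo2 and Sumo3 were 81.8% identical.

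Copies of Sumo2 cover its coding part. Along its longest coding transcript (1051 bases, coding from base 159 to 446), 10 other annotated genes held a stretch of at least 200 bases at 95% identity or more, all of them pseudogenes, spread over 7 chromosomes. Their identities ran from 95.5% to 100%. The 605 bases after the stop codon were covered by these annotated pseudogenes only as far as base 485. Samd8, a protein-coding gene on chromosome 14, held 784 aligned bases of Sumo2 in the antisense direction at 89.9% identity. Samd8 had a mean of 8.05 and a log2 change of -0.57 (adjusted p 0.991) in the authors' deposited table. Under the narrower search of the last 300 bases of coding transcripts, where 5.79% of the genes matched to the annotation had a copy at 95% identity, Sumo2 had none. The pseudogenes are not rows of the protein-coding table, the counting rules are not given in the sources used here, and reads from such copies could be split between loci, so the values of Sumo2 are uncertain. Sumo3 had no such copy along its transcript at 95%. The part of copies in the difference between the sides was not tested.

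**Figure D3:**
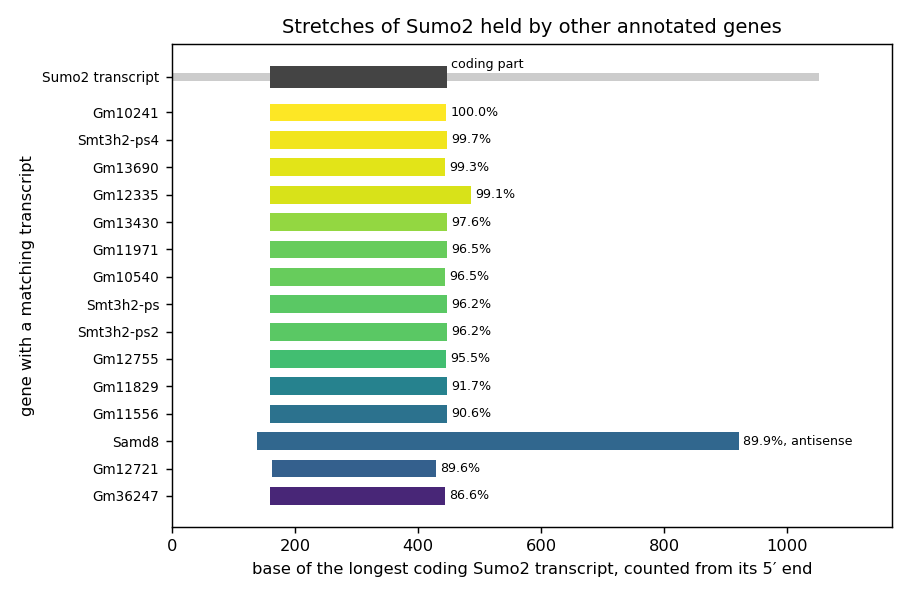
Stretches of the longest coding Sumo2 transcript (bases from its 5′ end, coding part in black) that other annotated genes match at 85% identity or more along 200 bases or more, with the identity beside each bar. The 10 bars at 95% or more all cover the coding part, and Samd8, in the antisense direction, is the bar that runs far past it, to base 920.

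Both subunits of the activating enzyme had similar levels on the sides. Sae1 (ENSMUSG00000052833, chr7:16320234-16387806, minus strand), the smaller subunit, stood at 14.8 normalized counts per region in distal and 13.1 in proximal, about 43.4 and 126 counts. For Sae1 the authors' deposited table gave a log2 change of 0.18 (SE 0.34, adjusted p 0.991). Uba2 (ENSMUSG00000052997, chr7:34140688-34169599, minus strand), which carries the catalytic cysteine, was the best covered member, with levels of 48.0 in distal and 57.6 in proximal and about 141 and 556 counts. The authors' deposited table gave Uba2 a log2 change of -0.26 (SE 0.18, adjusted p 0.991). Neither subunit was called, and the intervals, -0.47 to 0.84 for Sae1 and -0.62 to 0.09 for Uba2, left out a doubling or halving. Both genes lie on chromosome 7.

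Senp1 (ENSMUSG00000033075, chr15:98038744-98093744, minus strand) and Senp2 (ENSMUSG00000022855, chr16:22009484-22049269, plus strand) act on every SUMO paralogue and both trim precursors and remove the modifier. Senp1 stood at 15.1 normalized counts per region in distal and 13.0 in proximal, about 44.4 and 126 counts, and the authors' deposited table gave a log2 change of 0.22 (SE 0.34). Senp2 stood at 20.3 in distal and 16.5 in proximal, about 59.6 and 159 counts, and the authors' deposited table gave a log2 change of 0.31 (SE 0.33). Neither was called, with an adjusted p of 0.991 for each in the authors' deposited table, and their intervals reached 0.88 and 0.95 on the distal side. Senp1 overlaps Pfkm on the opposite strand, and since the strand of the counting is not given in the sources used here, reads of the overlap cannot be told apart. The same limit holds for Senp6, which overlaps the antisense gene Gm17477. Sumo3 overlaps Gm49325, annotated as protein-coding on the same strand, so reads of that overlap could not be assigned by strand either.

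Senp6 (ENSMUSG00000034252, chr9:80066903-80144953, plus strand) trims chains of Sumo2 and Sumo3. It stood at 31.4 normalized counts per region in distal and 36.6 in proximal, about 91.9 and 354 counts. The authors' deposited table gave it a log2 change of -0.22 (SE 0.22, adjusted p 0.991). Its mean of 34.02 in the authors' deposited table was next to the 33.9 of Sumo2, so nearly equal means went with similar levels on both sides for Senp6 and with a level mainly in distal for Sumo2. Part of its transcript matches Atp5l in the antisense direction, at 96.7% identity over 245 bases.

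Senp3 (ENSMUSG00000005204, chr11:69673115-69682084, minus strand), a protease of the nucleolus that acts on Sumo2 and Sumo3 and serves ribosome assembly, had the largest change after Sumo2 among the 8 genes. Its level was 13.4 normalized counts per region in distal and 6.82 in proximal, about 39.1 and 65.8 counts. For Senp3 the authors' deposited table gave a log2 change of 0.97 (SE 0.45, unadjusted p 0.0323, adjusted p 0.756). Senp3 was therefore not called. An unadjusted p under 0.05 was found for 2 of the 8 members, Sumo2 and Senp3, and for 6.07% of all genes or 12% of those with means of 10 or more. The interval ran from 0.08 to 1.86, and a log2 change of 1.59 would have been needed, at that SE, to reach the smallest statistic of a called gene. Senp3 has 2 pseudogene copies along its transcript, Gm15236 and Gm6580, at 96.3% and 96.1% identity.

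Intervals lay wholly between -1 and 1 on the log2 scale for 6 of the 8 members, all but Sumo2 and Senp3. The same held for 22.3% of all genes and 73.6% of those with means of 10 or more, a share near that of the members. Summed over the 4 proteases the level was 80.2 normalized counts per region in distal and 72.9 in proximal, a ratio of 1.10.

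**Figure D4:**
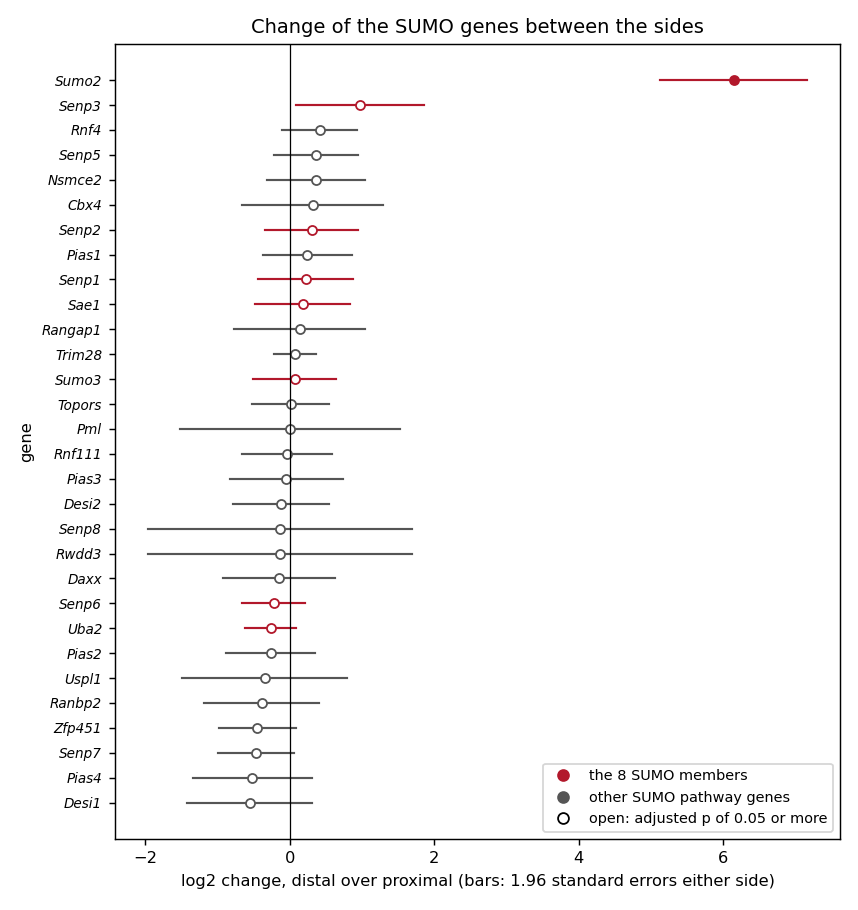
Deposited log2 change of distal over proximal for the 8 members and the other SUMO pathway genes with means of 1 or more, with bars for the 95% interval. The filled point, Sumo2 at 6.15, had an adjusted p under 0.05, and the open points did not.

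The 23 other SUMO pathway genes reported here were all in the table, and 0 were called in the authors' deposited table, whose columns are those of DESeq2 results. At an unadjusted p under 0.05 it gave 0 of 23 as well. Over all genes 0.977% were called and 6.07% had an unadjusted p under 0.05. For genes with means of 10 or more, 13 of these 23, the shares were 3.03% and 12%. A count of 0 in a list of 23 is near those shares and does not show that the pathway was unchanged. Their median log2 change in the authors' deposited table was -0.05, with a range of -0.56 to 0.60. The upper end is Sp100, a nuclear body protein with a mean of only 0.0964 in the authors' deposited table. Genes with 2 counts in most proximal regions also had a median log2 change of 0.60. The sign for Sp100 therefore does not show a higher level in distal. The 10 ligases of the list, which aid the transfer to chosen targets, had log2 changes from -0.52 to 0.36 in the authors' deposited table, and 0 of 10 were called. Trim28, a chromatin corepressor with ligase activity, was the best covered of them, with a mean of 84.1 and a log2 change of 0.07 (SE 0.15) in the authors' deposited table. The 4 Pias ligases summed to 56.5 normalized counts per region in distal and 61.9 in proximal. Senp5, a nucleolar protease, and Senp7, which edits chains, were uncalled, at 0.36 and -0.47 on the log2 scale in the authors' deposited table. Rnf4, a ubiquitin ligase that reads SUMO chains, had a log2 change of 0.42 (adjusted p 0.991) in the authors' deposited table.

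Of 28 other ubiquitin-like modifiers and enzymes reported here, 27 were in the table and 0 were called in the authors' deposited table, a table of DESeq2 results per its headers. The share called was 0.977% over all genes and 3.03% at means of 10 or more, which 13 of the 27 had. At an unadjusted p under 0.05 there were 3 of 27 in the authors' deposited table, Nedd8, Isg15 and Atg5, named after their values were seen, beside 6.07% of all genes and 12% of those with means of 10 or more. Nedd8, the modifier that activates cullin ligases, stood at 35.7 normalized counts per region in distal and 20.6 in proximal, about 104 and 199 counts. Nedd8 had a log2 change of 0.79 (SE 0.23, adjusted p 0.0676) in the authors' deposited table. Isg15, an interferon-induced modifier, rested on about 5.71 distal and 2.05 proximal counts. The median log2 change of the 27 genes was -0.02, beside 0.07 over all genes.

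The 5 genes nearest to Sumo2 in log2 change, among those with a mean above the median, were Dynlt1b (5.81, SE 0.99), Ndufs5 (3.40), Tfap2a (2.19), Adamts20 (2.15) and Syt15 (2.14) in the authors' deposited table. Likeness was the difference in log2 change over the 2 libraries, which was 0.34 for Dynlt1b, 2.75 for Ndufs5 and 4.00 for Syt15. Dynlt1b, a dynein light chain, rested on about 36.0 distal and 2.12 proximal counts, far fewer than Sumo2. Its proximal counts lay under the limit of 3, so its log2 change and its likeness to Sumo2 are imprecise. Among genes with means of 10 or more, the next largest log2 change after Sumo2 was the 2.14 of Syt15.

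The spread between regions was read from the standard errors. The dispersion, the part of the squared coefficient of variation between regions beyond counting, was 0.0367 for Sumo2. Genes with means from 27.1 to 42.3, close to that of Sumo2, had a median of 0.0298, with 0.0182 and 0.0732 at their 5th and 95th percentiles. The dispersion of Sumo2 in the fit lay between those percentiles. Fits of this kind usually smooth dispersions towards genes of like mean, which would narrow such differences. The standard error of Sumo2, 0.52 in the authors' deposited table, was larger than that of 100% of those 598 genes, whose median was 0.24. Counting error made up 88.3% of its square, and the 9.11 proximal counts alone made up 84.4%. The dispersion of Sumo2 comes from the small remainder. It therefore depends closely on the computed counts and does not show how far the regions agreed. For Senp6, at a like mean, the dispersion was 0.0252 and counting made up 56.7%.

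Senp3 and Senp2 had the widest spread among the members. The dispersion of Senp3 was 0.141, at percentile 94.3 of genes with a like mean, and counting made up 41.3% of its squared standard error. That of Senp2 was 0.0704, at percentile 84.8. Uba2 had 0.0169, at percentile 20.9, and Sumo3 had 0.0391, at percentile 27.9. Sae1 and Senp1 lay in the middle, at percentiles 44.9 and 50.2.

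**Figure D5:**
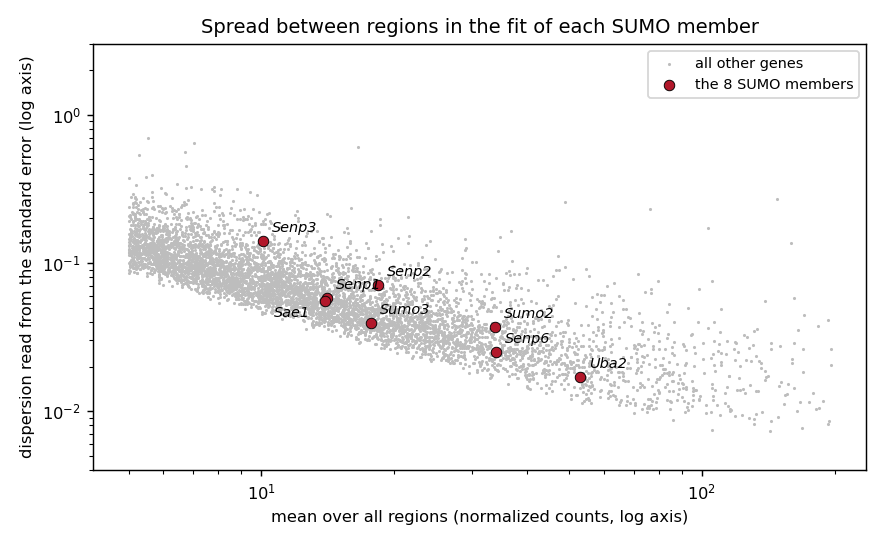
Dispersion read from the deposited standard error against the mean over all regions (both on log axes) for genes with a mean from 5 to 200. Sumo2 at 0.0367 lies within the cloud, and Senp3 at 0.141 lies near its upper edge.

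Marker genes of muscle moved between the sides. Of 8 muscle markers 4 were called, Actc1, Tnnt1, Myog and Myl1, all higher in proximal, beside 0.977% called over all genes. Levels of the 8 markers summed to 10.9 normalized counts per region in distal and 107 in proximal. Most of each sum was Actc1, at 8.27 in distal and 71.5 in proximal. Tnnt1, Myog and Myl1 had computed distal counts of about 1.41, 1.43 and 1.43, under the limit of 3, so their changes are imprecise. At such low levels the fitted means are held at 0.5, so these computed values are not exact counts. In all, 7 of the 8 markers stood at or under that limit on a side. Of 15 limb mesenchyme markers 6 were called, beside 0.977% of all genes and 3.03% of those with means of 10 or more. Towards distal there were 4, Hoxd13, Msx1, Hoxd12 and Lhx2, with log2 changes from 1.02 to 1.16 in the authors' deposited table. Towards proximal there were 2, Pdgfra (-0.86) and Tbx5 (-1.41). The part of these shifts in the change of Sumo2 was not tested.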

How the data were processed

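The authors compared 5 distal with 5 proximal barcoded regions and deposited a table with 1 line per protein-coding gene, whose columns are those of DESeq2 results, per the file headers. Its mean is a signal in normalized counts averaged over regions, its change and standard error are on the log2 scale (positive in distal), its statistic is a score equal to their ratio, and its p-value and adjusted p-value were deposited by the authors. Genome builds mm10 and GRCm38 are named per the submitters' processing notes. The aligner and counting are not given in the sources used here. No count test was run, since the table holds no value per region.

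Size factors were read from steps in the lowest means that at least 12 genes share and that are no sum of lower steps, and a region was taken as distal where genes with 2 counts there had a higher median log2 change than genes with 1. Levels of a side come from the mean and the log2 change, counts from levels times summed size factors, and the dispersion is the value that gives the deposited standard error with fitted means held at or above 0.5. The size factors and sides were tested on data simulated with these size factors and the same model of counts. Counts and dispersions were tested there only for genes with means above 10. Such a test checks the calculation and cannot show whether the model holds for these regions. Counts computed for genes of lower means were not tested, and held fitted means can move them where counts are few. Intervals are 95% normal intervals from the deposited standard error. Calls have an adjusted p under 0.05. Copies were searched with blastn 2.17.0 in GENCODE M21 transcripts, where 13915 of 13916 gene IDs matched. The genome itself was not searched. Named were all members, listed pathway genes (some genes of the lists are not reported here), and the 5 genes nearest to Sumo2. The members and lists were chosen with earlier results of these data known.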

Additional observations from a re-analysis of the deposited data

How the results depend on the processing

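Sumo2 was the called member, and 0 of the 23 other pathway genes reported here were called, under each of 6 alternatives (a threshold of 0.01, adjustment over listed genes or over genes with means of 10 or more, a log2 change of at least 1, and both centrings). A stricter threshold or an added log2 limit can only lower the number called, so neither could change the 0. Sumo2 was chosen for its change, so its call under these alternatives is a description. All 16 centred log2 changes of the members kept their sign and their side of the limit. The number of all genes called, 136, fell to 89 at a threshold of 0.01, because the limit is stricter. It was 144 on centring on the median of all genes, with 44 higher in distal in place of 55. With a log2 change of at least 1 as well it was 96, with 30 higher in distal, and with adjustment over genes with means of 10 or more 149, with 70 higher in distal. The number of members with a copy at the transcript end, 1 (Senp6), was 2 at 90% identity (Senp2 and Senp6), 0 at 98%, 0 with the longest coding transcript only, and 3 along whole transcripts (Sumo2, Senp3 and Senp6), an alternative chosen after seeing the data. The bases and identities searched set these numbers by construction. The median of the members ranged from 0.13 to 0.22, and no member stood at or under a floor of 1, 3 or 5 counts. Weighting regions as in a fit was not run, since it needs values per region. No paired analysis was possible because regions have no values of their own here, and for the same reason no region was left out in turn. Depth limits the distal side most, and for Sumo2 the proximal side, with 9.11 counts.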

Other observations

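At least partly within 100 kb of Sumo2, 9 other genes were in the table and 0 of them were called. Those with a mean of at least 1 in the authors' deposited table were Nup85, Jpt1, Gga3, Kctd2 and Mrps7, with log2 changes of 0.56, -0.41, -0.68, -0.73 and -1.12. The nearest start sites were those of Jpt1, 21.9 kb away, and Nup85, 28.2 kb away.

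Eif4a1, a translation initiation factor whose start lies 9.66 kb from that of Senp3, was the called gene among 13 neighbours of Senp3. Eif4a1 had a log2 change of 0.79 (SE 0.22, adjusted p 0.0295) in the authors' deposited table. It was chosen after its values were seen. The neighbours of the other 7 members, within the same distance, included 0 calls.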
